A study of Homo sapiens with 18 samples.

Results

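The 26S proteasome is the protease that degrades ubiquitin-tagged proteins. Its 20S core is a barrel of alpha and beta rings with the active sites inside, and its 19S regulatory particle, made of a base with an ATPase ring and a lid, binds, unfolds and feeds in the tagged proteins. Cells also carry inducible catalytic subunits, which replace the constitutive ones in the immunoproteasome that supplies peptides for antigen presentation. Proteasome genes are known to be transcribed together, and NFE2L1 is a transcription factor that raises them when proteasome activity is short. The genes described here are the constitutive subunits and their numbered partners, chosen by symbol: PSMA, PSMB, PSMC or PSMD followed by a number, without the inducible PSMB8, PSMB9, PSMB10 and PSMB11. They were 35 of the 55765 gene symbols in the data. PSMA8, the testis form of an alpha subunit, was at 0 counts in all 18 libraries, and the other 34 had enough counts to be tested.

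OVCAR3, a human cell line long used as a model of high-grade serous carcinoma of the ovary, was studied by RNA sequencing to ask how tumour cells respond to IgA, the antibody class that the receptor pIgR carries across epithelia. A first series set non-specific human IgA and non-specific human IgG beside untreated cells. A second set IgA to TSPAN7, a cell-surface tetraspanin, and IgA to BDNF, a secreted neurotrophin, beside untreated cells of its own. Every antibody was given at 0.5 µg/ml, the specific IgA coming from immortalised tumour-derived B cells. Each of the 6 groups had 3 replicate libraries, all groups were one cell line kept in medium with 2% serum, and the antibodies were left on for 24 h according to the labels and methods, although the titles of supplementary material give 8 h. The labels did not say whether replicates came from separate cultures, while the paper calls those of the first series experiments, and p-values measure the spread between these libraries. In one cell line, a change in RNA per cell and a change in the mix of cell states cannot be told apart.

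Depth was 27920733 to 42371474 counts a library (first series) and 39254350 to 47381836 (second), of which the 35 genes made up 0.452% to 0.619% and 0.496% to 0.564%. The mitochondrial genome took 19.1% of IgA replicate 3 and from 5.75% to 10.2% of every other library. All 8 markers of serous ovarian epithelium were detected in every library. Of 8 leukocyte markers, none passed 56 counts, and CD3E and MS4A1 were at 0 in 17 libraries each. Of 4 fibroblast markers, DCN and LUM stayed at or under 66 counts while COL1A1 and COL1A2 ranged from 514 to 3160. The summed normalised counts of the fibroblast markers ran from 2393 to 4875 with non-specific IgA, from 2057 to 2283 with IgG and from 2215 to 2463 in untreated cells of that series, and their part in the results below was not tested. Replicate libraries were less alike in the first series, where the common dispersion was 0.0307, than in the second, where it was 0.00303.

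The promoters of these genes were taken from RefSeq on GRCh38.p14, from 250 bases before to 50 bases after each start. The table held 36 promoters for 30 of the 35 genes, with none for PSMA7, PSMB1, PSMB6, PSMB7 or PSMD4. NFE2L1 and NFE2L2 bind the antioxidant response element with small MAF proteins. A permissive pattern for its core, TGANNNNGC (N is any base), was searched on either strand. It was found in 22 of the 36 (61.1%), against 41.8% of 35116 promoters of all genes. CCAAT was in 44.4% against 34.6%, the motif of nuclear respiratory factor 1 in 19.4% against 5.78%, the ETS motif CCGGAAGT in 22.2% against 4.14%, and the GC box GGGCGG in 66.7% against 45%. Promoters of the genes tested in the first series held the last 3 more often than all promoters did, in 8.96%, 6.68% and 64.2%. Overlapping promoters of the same gene were counted apart, so some single matches entered more than once. Examples are the nuclear respiratory factor 1 motif in PSMA4 and PSMA6, and TGANNNNGC in PSMA6. A match is a description of the letters and not a binding site. The 250 bases before the start are shown for PSMA3, the gene with the largest increase in 2 comparisons, for PSMC4, the most abundant of the genes per kilobase, and for PSMD5, the gene with the lowest value in both comparisons of non-specific IgA. Capitals mark TGANNNNGC or its reverse complement. The stretches lie at chr14:58244593-58244842 (plus strand), chr19:39970915-39971164 (plus strand) and chr9:120842923-120843172 (minus strand).
PSMA3: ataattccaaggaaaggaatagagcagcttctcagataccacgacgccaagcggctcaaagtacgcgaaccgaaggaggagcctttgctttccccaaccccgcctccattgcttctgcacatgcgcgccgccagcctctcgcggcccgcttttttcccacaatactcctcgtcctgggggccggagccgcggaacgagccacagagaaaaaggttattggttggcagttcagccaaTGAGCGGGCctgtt
PSMC4: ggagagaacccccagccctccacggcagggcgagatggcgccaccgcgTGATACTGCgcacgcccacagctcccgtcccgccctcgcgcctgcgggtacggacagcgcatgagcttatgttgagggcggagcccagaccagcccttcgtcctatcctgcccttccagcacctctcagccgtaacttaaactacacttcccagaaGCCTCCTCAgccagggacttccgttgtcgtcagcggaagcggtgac
PSMD5: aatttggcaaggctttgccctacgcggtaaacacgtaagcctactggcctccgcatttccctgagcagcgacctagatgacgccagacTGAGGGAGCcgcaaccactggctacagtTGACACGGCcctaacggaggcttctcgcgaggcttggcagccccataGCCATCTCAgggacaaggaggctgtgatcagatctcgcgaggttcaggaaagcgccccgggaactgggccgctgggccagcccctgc
PSMA3 held 1 match, close to the start, PSMC4 held 2 and PSMD5 held 3 in the bases shown.

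In untreated cells the genes differed widely in level per kilobase of transcript, although most of their products are assembled in equal numbers in the mature particle. These levels are counts divided by the length of the canonical transcript (GENCODE on GRCh37) and scaled to the same sum over all genes with a length. In the first series they ran from 8.06 for PSMD9, an assembly factor, to 1406 for PSMC4, an ATPase of the base, with a median of 110. PSMC4 stood at 12.8 times that median and PSMD8, a lid subunit, at 7.14 times, and 17 of the 34 lay within 2-fold of it. In the second series the same 3 genes were the lowest and the 2 highest, at 9.48, 1016 and 591 against a median of 126. With the union of all exons as length, PSMC4 remained the highest in both series, at 22.1 and 10.6 times the median. PSMD8 was then second in the first series and at rank 4 in the second. With canonical length 21 of the 34 genes lay above the 90th percentile of all genes with a length in each series, and with union length 16 and 18 did. PSMC4 lies at chr19:40477072-40487671 and PSMD8 at chr19:38865203-38874490 (GRCh37, plus strands), and no other annotated gene overlapped their exons. Among the 29 pseudogene rows of these genes, only those of PSMC1 and PSMA6 held more than 50 counts in every library, and all together were at most 0.230% of the counts of the 35 genes.

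**Figure D1:**
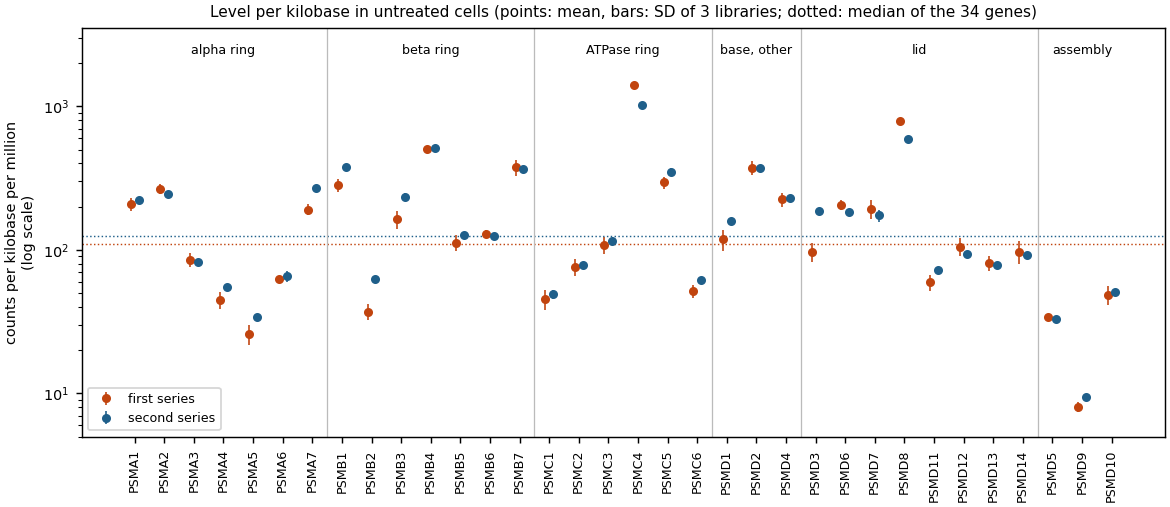
Level of each of the 34 constitutive proteasome genes in untreated cells, in counts per kilobase of canonical transcript, scaled to the same sum in every library, on a log axis, grouped by role; points are the mean and bars the SD of 3 libraries, and dotted lines the medians of 110 (first series) and 126 (second series). PSMC4 (1406 and 1016) and PSMD8 (787 and 591) stand above the others, and PSMD9 (8.06 and 9.48) below them.

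The comparison of non-specific IgA with non-specific IgG asked what IgA does that another antibody class does not. Proteasome genes were higher with IgA, by 1.24 to 1.47 fold where a change was called. By edgeR's quasi-likelihood test, 12 of the 34 were higher at an adjusted p under 0.05 and 0 were lower, where 12.6% of all 18012 genes tested were higher and 11.6% lower. No gene was lower at an unadjusted p under 0.05 either, and DESeq2 called 14 higher and 0 lower, voom with quality weights 10 and 0. The median log2 fold change of the 34 was 0.28, against -0.01 over all genes, and 33 of the 34 values were above 0. In 17 of the 34 (50%) all 3 IgA libraries exceeded all 3 IgG libraries, as in 19.7% of all genes, and in 0 all lay below, as in 20.6%.

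The core carried most of these calls. In the alpha ring, which forms the gate of the barrel, 4 of 7 tested genes were higher (PSMA1, PSMA3, PSMA4 and PSMA7), and in the beta ring 4 of 7 (PSMB2, PSMB3, PSMB4 and PSMB7). In the 19S particle 4 of 17 were higher: the ATPase PSMC1 and the lid subunits PSMD3, PSMD7 and PSMD13. The median log2 fold change was 0.41 in the core and 0.22 in the 19S particle, and whether these differ was not tested over genes. By part, the median was 0.42 in the alpha ring, 0.31 in the beta ring and 0.31 in the lid. It was 0.18 in the ATPase ring and 0.22 in the rest of the base.

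PSMA3, an alpha subunit at chr14:58711561-58738730 (GRCh37, 11 exons), rose most. Its normalised counts were 2285, 1653 and 1866 with IgA, 1542, 1432 and 983 with IgG, and 1409, 1418 and 1163 in untreated cells. Every IgA library was above every other library of the series, and IgG replicate 3 was the lowest. The log2 fold change against IgG was 0.55 ± 0.17 (SE, n = 3 per group, edgeR adjusted p = 0.0302). PSMB2, a beta subunit without protease activity, had 3718, 4107 and 4328 with IgA, 3277, 3110 and 2322 with IgG, and 2898, 2861 and 2304 in untreated cells. Here too the IgA libraries lay above all others, and the log2 fold change against IgG was 0.48 ± 0.14 (edgeR adjusted p = 0.0226). PSMA1 had 6494, 5386 and 4936 with IgA against 4316, 4068 and 3649 with IgG, a log2 fold change of 0.48 ± 0.12 (edgeR adjusted p = 0.0117). Of its exonic bases (GENCODE on GRCh37), 67.0% are shared with another annotated gene on the same strand. How reads there were counted is not given in the sources used here.

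Among the 3 constitutive subunits that cut proteins, only PSMB7, the trypsin-like one, was called in this comparison. Its normalised counts were 8698, 8027 and 8293 with IgA, 6732, 6459 and 4932 with IgG, and 6369, 6573 and 5218 in untreated cells. The IgA libraries lay above all the others, IgG and untreated cells overlapped, and the log2 fold change against IgG was 0.46 ± 0.13 (edgeR adjusted p = 0.0181). PSMB5, the chymotrypsin-like subunit and the main target of the proteasome inhibitor bortezomib, had 2194, 2430 and 2202 with IgA, 2287, 2308 and 1615 with IgG, and 1997, 2101 and 1661 in untreated cells. IgA and IgG overlapped, with a log2 fold change of 0.14 ± 0.14 (edgeR adjusted p = 0.516), which was -0.10 with library size scaling and -0.02 without IgG replicate 3. PSMB6, the caspase-like subunit, had 2470, 1946 and 1845 with IgA and 1832, 1932 and 1503 with IgG (0.25 ± 0.13, edgeR adjusted p = 0.191), also with overlap.

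In the 19S particle the calls were fewer and the most abundant genes were among those not called. The ATPase PSMC4 had 44264, 44050 and 34846 with IgA and 41861, 41375 and 37433 with IgG, a log2 fold change of 0.03 ± 0.11 (edgeR adjusted p = 0.875). PSMC1 had 3764, 3741 and 3899 with IgA and 2908, 2834 and 2840 with IgG and a log2 fold change of 0.41 ± 0.11 (edgeR adjusted p = 0.0196), but it was not called against untreated cells, where it had 3239, 3767 and 2709 (adjusted p = 0.154). Of the exonic bases of PSMC1, 83.2% lie opposite NRDE2 on the other strand, and without strand in the counting those reads cannot be told apart. PSMD3, a lid subunit, had 4431, 4447 and 5374 with IgA and 3903, 3798 and 2971 with IgG (0.42 ± 0.14, edgeR adjusted p = 0.0421). PSMD7, a lid subunit beside the deubiquitinase, had 5956, 6332 and 6541 with IgA and 4953, 4642 and 4465 with IgG (0.42 ± 0.11, edgeR adjusted p = 0.0170), without overlap, and 51.6% of its exonic bases lie opposite a long non-coding RNA. PSMD4, the ubiquitin receptor of the base, had 5437 ± 289 with IgA and 4667 ± 334 with IgG (SD, n = 3) and PSMD14, the lid's deubiquitinase, 3011 ± 471 and 2453 ± 356. Neither was called, with edgeR adjusted p-values of 0.145 and 0.180. PSMD11, a lid subunit, had 5178, 4628 and 4488 with IgA and 4440, 4164 and 2884 with IgG, which did not overlap, but its edgeR adjusted p was 0.145.

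The base assembly factors, which chaperone the ATPases and leave before the particle is mature, held none of the calls. None of PSMD5, PSMD9 and PSMD10 was called by edgeR or had an unadjusted p under 0.05 in the comparison with IgG. PSMD5 (chr9:123577774-123605229, GRCh37) had 1402, 2029 and 1479 with IgA, 2070, 1866 and 1884 with IgG, and 1877, 1935 and 1874 in untreated cells. It had the lowest value in 2 of the 3 IgA libraries, and its log2 fold change against IgG was -0.24 ± 0.13 (edgeR adjusted p = 0.193). Without IgA replicate 2 it fell, with -0.43 (edgeR adjusted p = 0.00832). PSMD9 had 274, 382 and 493 with IgA, a spread wider than that of any other of the genes in that group, and 368, 386 and 346 with IgG. PSMD10 had 1447 ± 175 and 1292 ± 159 (edgeR adjusted p = 0.410).

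**Figure D2:**
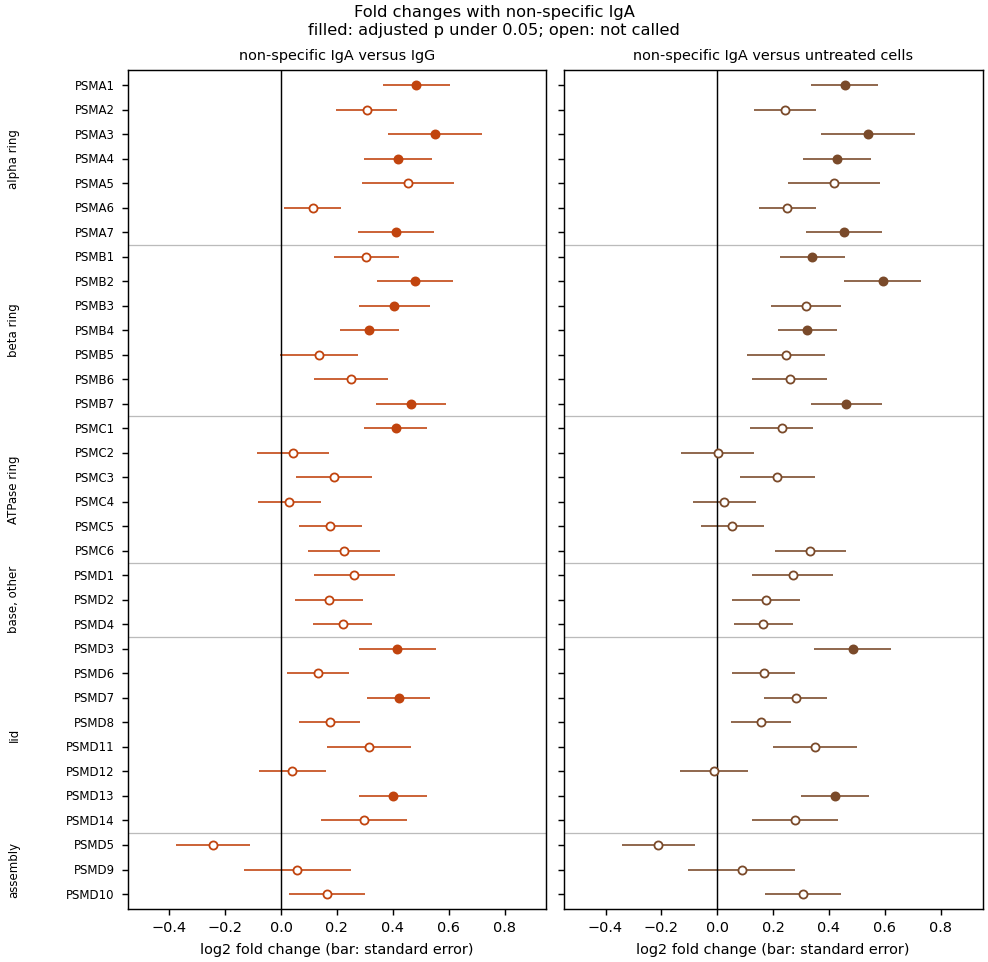
Log2 fold change of each constitutive proteasome gene with non-specific IgA against IgG (left) and against untreated cells (right), by role; bars are standard errors, 3 libraries per group, and filled points passed an adjusted p of 0.05. In the left panel the medians are 0.41 for the core, 0.31 for the lid and 0.18 for the ATPase ring, with overlapping ranges. PSMD5 is the lowest point in both panels.

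Against untreated cells, non-specific IgA gave a like picture, with the same IgA libraries in both comparisons. By edgeR 10 of the 34 genes were higher and 0 lower (0 lower at an unadjusted p under 0.05, and by DESeq2 10 and 0, by voom 9 and 0), where 12.9% of all genes were higher and 12.1% lower. The median log2 fold change was 0.28 and 18 of the 34 did not overlap (52.9%, against 19.8% of all genes), all with IgA above, where 20.1% of all genes had IgA below. The 10 were PSMA1, PSMA3, PSMA4, PSMA7, PSMB1, PSMB2, PSMB4, PSMB7, PSMD3 and PSMD13, 8 of 14 core genes and 2 of 17 of the 19S particle, and 9 of them were also among the 12 called against IgG. PSMB2 led with a log2 fold change of 0.59 ± 0.14 (edgeR adjusted p = 0.00767), then PSMA3 with 0.54 ± 0.17 (adjusted p = 0.0320) and PSMD3 with 0.48 ± 0.14 (adjusted p = 0.0213). PSMB7 and PSMA1 followed, both at 0.46.

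Non-specific IgG left the genes where they were in untreated cells as far as 3 libraries could show. The median log2 fold change was 0.01, the range -0.18 to 0.14, and 0 of the 34 were called in either direction by edgeR, DESeq2 or voom, with 0 at an unadjusted p under 0.05. Over all 18012 genes edgeR also called 0 (0% higher and 0% lower), with 89 at an unadjusted p under 0.05. In 1 gene, PSMA6, all IgG libraries lay above all untreated libraries, as in 3.32% of all genes (3.43% had IgG below), with a log2 fold change of 0.14 ± 0.10 that was not called. Of the exonic bases of PSMA6, 81.4% are shared with another annotated gene on the same strand.

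These calls rested on few libraries and did not hold with every scaling. IgG replicate 3 had the lowest value of its group in 31 of the 34 genes, and untreated replicate 3 of the first series in 34 of 34. Against the untreated mean, the mean log2 level of the 34 genes was 0.29, 0.29 and 0.21 in the IgA libraries, 0.13, 0.07 and -0.19 with IgG, and 0.06, 0.10 and -0.17 in untreated cells. All 3 IgA libraries were thus above the 6 others, but IgG and untreated cells each had 1 library far below the other 2. Without IgG replicate 3 the number of genes higher with IgA than IgG went from 12 to 0 and the median to 0.15, without IgG replicate 2 the number was 3, and without IgA replicate 1 it was 4. Against untreated cells it went from 10 to 1 without untreated replicate 3, to 4 without untreated replicate 1, to 6 without untreated replicate 2 and to 3 without IgA replicate 1. Without IgA replicate 3 it was 12, and 13 against IgG. PSMB2 was still called against untreated cells in each of the 6 fits that left out 1 library, with an adjusted p of at most 0.0443.

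With scaling by library size in place of TMM (the trimmed mean of M-values), 0 of the 34 genes were called in either comparison. With median-of-ratios scaling 12 were higher against IgG and 10 against untreated cells. Over all genes that scaling put the median at -0.25 against IgG and -0.22 against untreated cells, and IgA replicate 3, with its 19.1% of mitochondrial counts, to a mean member level of -0.17. The medians of the 34 genes became 0.04 and 0.06. Relative to the median of all genes they were 0.29 and 0.28, and 0.29 and 0.29 with TMM. A change of scaling shifts all genes of a library alike, so these relative values could hardly differ and do not test the calls.

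**Figure D3:**
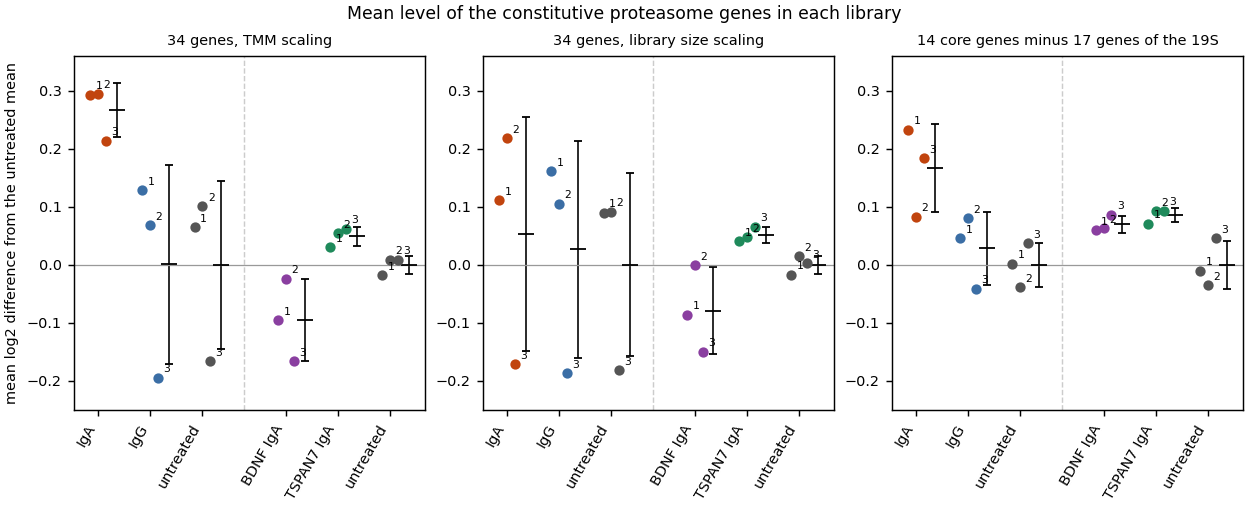
Mean log2 level of the constitutive proteasome genes in each library, relative to the untreated mean of its series, with TMM scaling (left) and library size scaling (middle), and the mean of 14 core genes minus that of 17 genes of the 19S particle (right); points are libraries numbered by replicate, bars mean ± SD of 3. With TMM the 3 IgA libraries (0.21 to 0.29) lie above the other 6 of their series, and with library size scaling replicate 3 falls to -0.17. In the right panel all 9 IgA-treated libraries lie at 0.06 or higher, as does IgG replicate 2 (0.08).

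The difference between core and 19S genes within a library does not depend on scaling, since both are measured in the same library. Relative to the untreated mean, the mean log2 level of the 14 core genes minus that of the 17 of the 19S particle was 0.23, 0.08 and 0.18 with non-specific IgA, 0.05, 0.08 and -0.04 with IgG and 0.00, -0.04 and 0.04 in untreated cells. IgA replicate 2 exceeded IgG replicate 2 by a margin that vanishes on rounding. In the second series the difference was 0.06, 0.06 and 0.09 with BDNF IgA, 0.07, 0.09 and 0.09 with TSPAN7 IgA and -0.01, -0.04 and 0.05 in untreated cells. All IgA libraries, specific or not, thus lay above every untreated library of their own series. So did IgG replicates 1 and 2 in the first series. Core transcripts are shorter, with a median canonical length of 1004 bases against 1754 for the 19S. Across all genes with a length, the rank correlation of a library's log2 difference from the untreated mean with length was from -0.20 (IgA replicate 1) to -0.02 with non-specific IgA, from -0.06 to 0.09 with IgG and from -0.09 to 0.07 in untreated cells. In the second series it was 0.02 to 0.05 with BDNF IgA, -0.03 to 0.00 with TSPAN7 IgA and -0.12 to 0.07 in untreated cells. The part of length in the difference was not tested.

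**Figure D4:**
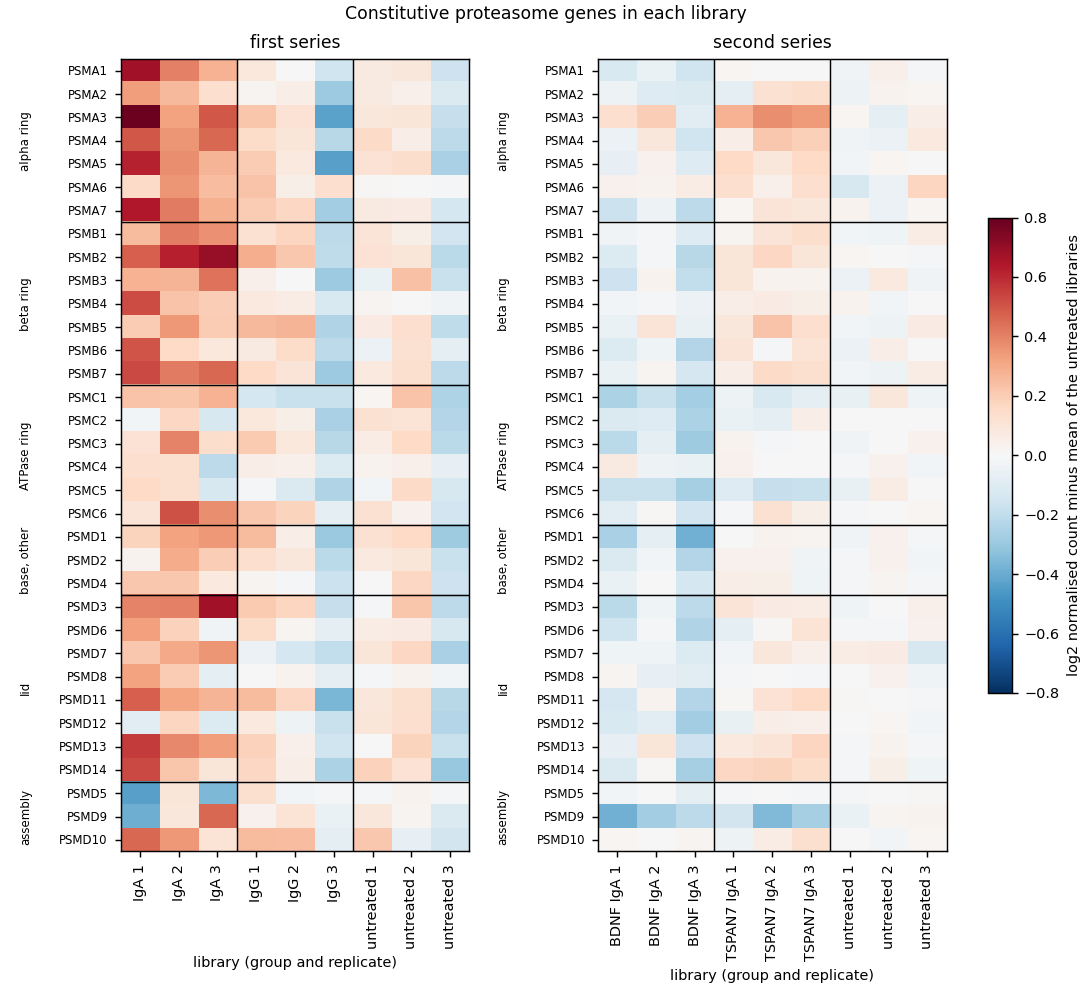
Heat map of the 34 genes (rows, by role) in the 9 libraries of each series (columns), as log2 normalised count minus the mean of the untreated libraries of that series, on one colour scale from -0.8 to 0.8. In the first series the IgA columns are mostly red and IgG replicate 3 and untreated replicate 3 blue down most rows, and in the second the BDNF IgA columns are pale blue, with replicate 3 darkest, and PSMA3 is red with TSPAN7 IgA.

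With BDNF IgA most values were lower than in untreated cells of the second series, and the series were not compared with each other. By edgeR 6 of the 34 genes were lower and 0 higher (0 higher at an unadjusted p under 0.05, and 0 by DESeq2 and voom), where 3.18% of all 18732 genes tested were lower and 4.49% higher. They were the ATPases PSMC1, PSMC3 and PSMC5, the base scaffold PSMD1, the lid subunit PSMD12 and the assembly factor PSMD9. The 19S particle held 5 of them among 17 genes and the core 0 of 14, although 4 core genes were lower at an unadjusted p under 0.05. The median log2 fold change of the 34 was -0.10 against 0.00 over all genes, 31 values were below 0, and 10 (against 12% of all genes) did not overlap.

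PSMC1 had 3759, 3957 and 3713 normalised counts with BDNF IgA against 4312, 4773 and 4382 in untreated cells. All BDNF IgA libraries lay below all untreated libraries, and PSMC1 fell by 0.24 ± 0.05 on the log2 scale (edgeR adjusted p = 0.00355). PSMC5, another ATPase, had 8646, 8643 and 8126 against 9364, 10166 and 9806 and fell by 0.21 ± 0.04 (edgeR adjusted p = 0.00560). Of the exonic bases of PSMC5, 13.7% lie opposite FTSJ3 on the other strand. PSMD1, the scaffold on which ubiquitin receptors dock, had 9174, 10472 and 8413 against 10777, 11268 and 10924 (-0.23 ± 0.06, edgeR adjusted p = 0.0129). PSMC3 had 3196, 3515 and 3044 against 3647, 3698 and 3797 (-0.19 ± 0.05, edgeR adjusted p = 0.0207). In both of these genes BDNF IgA replicate 2 was the nearest to untreated cells. PSMD9 had 414, 445 and 468 against 522, 549 and 552, the largest change at -0.29 ± 0.08 (edgeR adjusted p = 0.0332), and with TSPAN7 IgA it had 488, 423 and 450. Those libraries too lay below untreated cells, at -0.25, without passing the test (edgeR adjusted p = 0.0623). Of the exonic bases of PSMD9, 28.8% are shared with another annotated gene.

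BDNF IgA replicate 3 was the lowest of its group in 30 of the 34 genes and replicate 2 the highest in 26. Their mean log2 levels against untreated cells were -0.10, -0.02 and -0.17 for replicates 1, 2 and 3. Without replicate 2 the number of lower genes rose from 6 to 17, without replicate 3 it was 3, and without replicate 1 it was 2. Without untreated replicates 1, 2 or 3 it was 3, 1 and 3. PSMC1 was called in all 14 alternative fits, with an adjusted p of at most 0.0416, and PSMC5 in 13, all but that without untreated replicate 2 (adjusted p = 0.0522).

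With TSPAN7 IgA against untreated cells 2 of the genes were called, PSMA3 higher and PSMC5 lower. PSMA3 had 1994, 2122 and 2081 normalised counts with TSPAN7 IgA, 1802, 1884 and 1544 with BDNF IgA, and 1660, 1565 and 1708 in untreated cells. All TSPAN7 IgA libraries were above all the others, and PSMA3 was higher than in untreated cells by 0.33 ± 0.06 on the log2 scale (edgeR adjusted p = 0.00215), a call kept in all 14 alternative fits. PSMC5 had 9082, 8588 and 8655 against 9364, 10166 and 9806 and was the 1 gene called lower (-0.16 ± 0.04, edgeR adjusted p = 0.0329). It was no longer called once TSPAN7 IgA replicate 2 or 3, or untreated replicate 2 or 3, was left out. The count was thus 1 higher and 1 lower of 34, where 4.46% of all genes were higher and 4.08% lower. The median was 0.05 and 8 genes did not overlap above untreated cells (14.4% of all genes) and 2 below (14% of all genes). With voom 7 genes were higher and 2 lower, and with only the 6 libraries compared 6 and 2.

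Between the specific antibodies, the genes were higher with TSPAN7 IgA than with BDNF IgA. All 34 log2 fold changes were above 0, with a median of 0.15 (0.00 over all genes) and a range from 0.02 to 0.28. By edgeR 13 were higher and 0 lower (0 lower at an unadjusted p under 0.05, by DESeq2 and by voom), where 3.42% of all genes were higher and 4.5% lower. In 18 genes (52.9%, against 11.5% of all genes) the groups did not overlap. The calls came from every part of the particle: PSMA3, PSMA5 and PSMA7 of the alpha ring, PSMB2, PSMB6 and PSMB7 of the beta ring, PSMC1 and PSMC3 of the ATPase ring, PSMD1 of the base, and PSMD3, PSMD11, PSMD12 and PSMD14 of the lid. None of the assembly factors was called, with log2 fold changes from 0.02 to 0.04.

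PSMD14, the deubiquitinase that removes ubiquitin chains from a substrate as it enters, changed most. It had 3373, 3398 and 3322 normalised counts with TSPAN7 IgA, 2767, 3025 and 2495 with BDNF IgA and 2974, 3109 and 2930 in untreated cells. Every TSPAN7 IgA library lay above all the others, untreated and BDNF IgA libraries overlapped, and the log2 fold change of TSPAN7 IgA over BDNF IgA was 0.28 ± 0.06 (edgeR adjusted p = 0.00336). PSMD3 had 9025, 8762 and 8751 against 7234, 8171 and 7257 (0.23 ± 0.05, edgeR adjusted p = 0.00526), and PSMB2 had 6215, 6498 and 6220 against 5370, 5765 and 4970 (0.23 ± 0.05, edgeR adjusted p = 0.00516). PSMD1 had 10968, 11221 and 11177 against 9174, 10472 and 8413 (0.25 ± 0.06, edgeR adjusted p = 0.00877). Of the catalytic subunits PSMB6 had 2314, 2145 and 2328 against 1994, 2103 and 1830 and PSMB7 had 7881, 8422 and 8292 against 7321, 7719 and 6917, with log2 fold changes of 0.20 ± 0.06 and 0.16 ± 0.05 (edgeR adjusted p = 0.0361 and 0.0369). PSMB5 had 2952, 3248 and 3034 against 2664, 2971 and 2656, which overlapped, and was not called (edgeR adjusted p = 0.0828). PSMC4 had 37635 ± 526 and 37147 ± 1776 (SD, n = 3, edgeR adjusted p = 0.849) and PSMD4 6493 ± 216 and 6116 ± 291 (adjusted p = 0.263).

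This contrast shares its BDNF IgA and TSPAN7 IgA libraries with the comparisons of each antibody with untreated cells. Without BDNF IgA replicate 3 the number of genes higher with TSPAN7 IgA was 3, without replicate 1 it was 4 and without replicate 2 it was 23, and without TSPAN7 IgA replicates 2 or 3 it was 2 and 5. PSMD14 and PSMD3 were called in all 14 alternative fits. The catalytic subunits held less well, PSMB6 being called in 7 of the 14 and PSMB7 in 8.

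**Figure D5:**
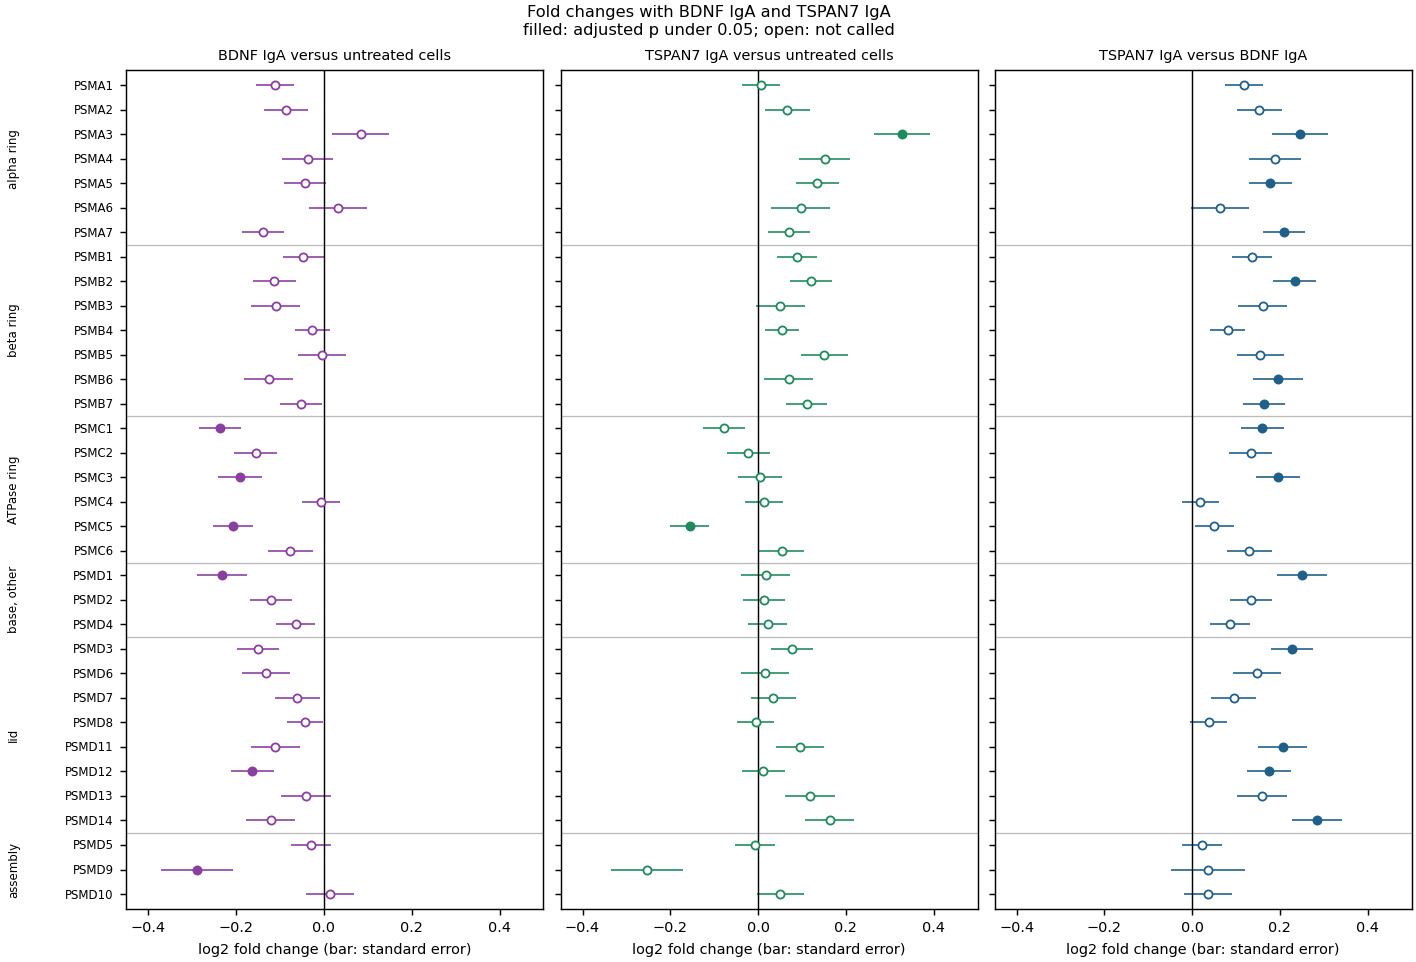
Log2 fold change of each constitutive proteasome gene with BDNF IgA against untreated cells (left), TSPAN7 IgA against untreated cells (middle) and TSPAN7 IgA against BDNF IgA (right), by role; bars are standard errors, 3 libraries per group, and filled points passed an adjusted p of 0.05. In the left panel 6 filled points lie below 0, in the middle PSMA3 is filled above and PSMC5 below 0, and in the right panel all 34 points are above 0 and 13 are filled.

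Of 8 tested inducible subunits and regulators of the proteasome, 4 were higher and 0 lower by edgeR with each specific antibody against untreated cells, where 4.49% (BDNF IgA) and 4.46% (TSPAN7 IgA) of all genes were higher. PSMB8 and PSMB9, catalytic subunits of the immunoproteasome, and PSME1 and PSME2, the subunits of the PA28 cap, were the 4. PSMB9 had 950, 851 and 1032 normalised counts with BDNF IgA, 830, 865 and 818 with TSPAN7 IgA and 668, 721 and 643 in untreated cells. Both antibodies lay above untreated cells, with log2 fold changes of 0.48 ± 0.07 (edgeR adjusted p = 0.000300) and 0.31 ± 0.08 (adjusted p = 0.0125). PSMB8 rose by 0.36 ± 0.05 and 0.21 ± 0.06, PSME1 by 0.39 ± 0.05 and 0.22 ± 0.05 and PSME2 by 0.28 ± 0.05 and 0.32 ± 0.05. PSMB10, the third inducible catalytic subunit, had log2 fold changes of -0.15 ± 0.12 and -0.26 ± 0.12 and was not called (edgeR adjusted p = 0.532 and 0.229). With non-specific IgA none of PSMB8, PSMB9, PSME1 and PSME2 was called. Against untreated cells PSME4, an alternative cap, was the 1 gene of the list that rose (0.34 ± 0.09, edgeR adjusted p = 0.0139). That is 12.5% of the 8 genes, near the 12.9% of all genes that were higher in that comparison.

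Ratios of counts within a library were not divided by transcript length, so they compare libraries and do not give the relative abundance of 2 transcripts. The ratio of PSMB5 to PSMB8, its inducible counterpart, was 4.95, 3.71 and 3.79 with non-specific IgA, 3.3, 3.49 and 2.41 with IgG and 2.81, 3.07 and 2.22 in untreated cells. It was 1.5, 1.71 and 1.48 with BDNF IgA, 1.75, 2.14 and 1.94 with TSPAN7 IgA and 1.95, 1.93 and 2.17 in untreated cells of that series. Non-specific IgA was above and BDNF IgA below all its controls, and TSPAN7 IgA overlapped untreated cells. The ratio of PSMB6 to PSMB9 was 2.10, 2.47 and 1.77 with BDNF IgA, 2.79, 2.48 and 2.84 with TSPAN7 IgA and 3.13, 3.10 and 3.34 in untreated cells, lower with both antibodies. In the first series that ratio was 7.76, 6.36 and 3.24 with non-specific IgA, 4.6, 4.59 and 4.17 with IgG and 4.17, 4.52 and 3.83 in untreated cells, which overlapped. The ratio of PSMB7 to PSMB10 was 127, 59.5 and 57.1 with non-specific IgA against 50.1, 47.6 and 31.9 with IgG, but PSMB10 had only 61 to 149 counts in those libraries. In the second series it was 28.6, 30.7 and 27.7 with BDNF IgA, 27.8, 45.1 and 36 with TSPAN7 IgA and 27.9, 24.9 and 28.8 in untreated cells, with overlap. In an exact two-sided permutation test, 3 libraries against 3 cannot give a p under 0.1, and 9 of the 18 ratio comparisons reached it (adjusted p = 0.200).

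Of 8 transcription factors of proteasome genes and their processing factors, 5 were higher and 1 lower with non-specific IgA against IgG, and likewise against untreated cells, where 12.6% and 12.9% of all genes were higher and 11.6% and 12.1% lower. MAFF, a small MAF partner of the NFE2 factors, had 2238, 1216 and 2178 normalised counts with IgA, 133, 150 and 181 with IgG and 197, 188 and 165 in untreated cells. That was a log2 fold change of 3.60 ± 0.23 against IgG (edgeR adjusted p = 6.75e-07). NFE2L1 had 13946, 12103 and 14016 against 8737, 8380 and 10126 (0.56 ± 0.11, edgeR adjusted p = 0.00356) and NFE2L2, which controls the oxidative stress response, 4612, 4007 and 4990 against 2790, 2854 and 2839 (0.68 ± 0.10, edgeR adjusted p = 0.000565). DDI2, the protease that cuts NFE2L1 into its active form, was lower, with 1780, 2528 and 1684 against 3879, 3787 and 4235 (-0.99 ± 0.14, edgeR adjusted p = 0.000387). In the second series 1 of the 8 was higher with BDNF IgA and 2 with TSPAN7 IgA (4.49% and 4.46% of all genes), NFE2L3 with both and MAFK with TSPAN7 IgA, and neither NFE2L1 nor NFE2L2 was called.

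Of 6 core assembly chaperones, POMP, which builds the beta rings, was the 1 called with non-specific IgA against IgG (higher, 0.41 ± 0.13, edgeR adjusted p = 0.0348). POMP was also the 1 called with TSPAN7 IgA against BDNF IgA (higher, 0.22 ± 0.05, adjusted p = 0.0135). With non-specific IgA against untreated cells PSMG2 was the 1 called (higher, 0.37 ± 0.11, adjusted p = 0.0283). In each case that is 16.7% of the list, where 12.6%, 3.42% and 12.9% of all genes were higher. Of 14 receptors, deubiquitinases and adaptors, 3 were higher and 1 lower with non-specific IgA against IgG, and likewise against untreated cells. Of all genes 12.6% and 12.9% were higher and 11.6% and 12.1% lower. UBQLN1 and RAD23B, which shuttle ubiquitinated proteins to the proteasome, were among the higher genes in both comparisons, and UBQLN4 was the lower one. UBQLN1 was higher than with IgG by 0.49 ± 0.11 on the log2 scale (edgeR adjusted p = 0.00790). ZFAND5 was higher with BDNF IgA and with TSPAN7 IgA (both 0.18 ± 0.04). It was the 1 of the 14 called with BDNF IgA and 1 of 2 called with TSPAN7 IgA, where 4.49% and 4.46% of all genes were higher. Of 11 genes for ubiquitin and its handling, 4 were higher and 0 lower with non-specific IgA against IgG, and likewise against untreated cells (12.6% and 12.9% of all genes were higher). Among the 4 was RPS27A, which encodes ubiquitin fused to a ribosomal protein. It was higher with non-specific IgA than with IgG (0.50 ± 0.14, edgeR adjusted p = 0.0187) and than in untreated cells (0.48 ± 0.14, adjusted p = 0.0208).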

How the data were processed

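RNA of 18 OVCAR3 libraries was sequenced as 75-base pairs (NextSeq 550). According to the methods, the authors trimmed reads with cutadapt 1.8.1, mapped the reads with STAR (GRCh37) and made gene counts with featureCounts, while the processing notes in the labels name HTSeq 0.6.1. Whether strand was used is not given in the sources used here. The deposited values are raw counts per gene, 1 table per series. In that of the second series, 2055 rows that repeated another exactly were dropped, from 1.99% to 2.46% of the counts.

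Each series was fitted by itself with its 9 libraries in edgeR 4.0.16 (R 4.3.3): filterByExpr, TMM, quasi-likelihood F test, Benjamini-Hochberg over all genes, adjusted p under 0.05. Standard errors were taken from F as the absolute log2 fold change over its root. Normalised counts put all libraries of a series on their average TMM-adjusted size. The code was tested on simulated data with changes larger than those of the proteasome genes. That test does not show how well changes this small are found. DESeq2 1.42.0 and voom (limma 3.58.1), other scalings and filters, a replicate block and leaving out each library were alternatives. Every library held 27920733 counts or more.

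The genes and the lists were chosen with earlier results of these data known. Values are given for the catalytic subunits, PSMD4, PSMD14, PSMD11, PSMC4, PSMA3, the assembly factors and the 5 largest called changes in each direction of a comparison, and for up to 3 called changes each way in a list. NFE2L1, and PSMC1 and PSMD3 in the comparison with IgG, fall outside this rule and were named after their values were seen. No deposited column was left unmapped. Some genes of the pathway lists are not reported here.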

Additional observations from a re-analysis of the deposited data

How the results depend on the processing

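Counts of called genes in the first series depended on single libraries and changed with library size scaling, though not with median-of-ratios scaling. With library size scaling 0 genes were called higher with non-specific IgA against IgG and 0 against untreated cells, and with only the 6 libraries compared 7 were higher against IgG. Leaving out 1 library gave from 0 to 13 higher and from 0 to 1 lower against IgG, and from 1 to 12 higher and from 0 to 1 lower against untreated cells. The log2 fold change of PSMB5 against IgG turned to -0.10 with library size scaling and -0.018 without IgG replicate 3, and leaving out 1 library it ran from -0.018 to 0.22. With BDNF IgA, voom called 12 lower, and leaving out 1 library gave from 1 to 17. With TSPAN7 IgA against untreated cells, 3 genes were higher with no filter on low counts, 7 higher and 2 lower with voom, and 6 higher and 2 lower with only the 6 libraries compared, and leaving out 1 library gave from 0 to 2 lower. With TSPAN7 IgA against BDNF IgA, voom called 23 higher and the 6 libraries 7, and leaving out 1 library gave from 2 to 23. The log2 difference of the ratio of PSMB5 to PSMB8 between TSPAN7 IgA and untreated cells ran from -0.13 to 0.015, turning sign without TSPAN7 IgA replicate 1. The causes of these changes were not tested. Fits that left out libraries also had fewer samples.

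The correlations of deviations from the group means between libraries of the same replicate number ran from -0.07 to 0.25, highest for IgG and untreated replicate 3 of the first series, so they were not over 0.1 in every pair, and not every library correlated best with its own number. With the replicate number as a block, 17 genes were higher with non-specific IgA than IgG, 13 higher than in untreated cells, 7 lower with BDNF IgA, 2 higher and 1 lower with TSPAN7 IgA against untreated cells and 16 higher with TSPAN7 IgA than BDNF IgA. With the block PSMD14 was also higher with non-specific IgA than IgG (0.30, edgeR adjusted p = 0.0452).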
